A study of Homo sapiens with 4 samples.

Results

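PAX7, PAX3, MSX1, MSX2, FOXD3, SOX9, SOX10 and ETS1 are 8 transcription factor genes known for their roles in the neural crest. They were taken by name, with low counts kept, from the 59050 genes of a read count table of human embryonic stem cells. PAX7 and ETS1 were selected on the same comparison that is described here, because they had been called different between the groups, and the other members were added as named neural crest factors. The differences of the 8 genes between the groups are therefore a description, and no p-value is given for them. The table holds 4 RNA-seq libraries of total RNA from HUES8, an established human embryonic stem cell line grown undifferentiated on Matrigel in mTeSR1 medium. In the labels, 2 libraries have the genotype WT and 2 have the genotype CPT2 KO, in which the gene of the mitochondrial enzyme carnitine palmitoyltransferase 2, needed to burn long-chain fatty acids, was targeted. All 4 libraries also carry the treatment label WT, and no agent or time is named. How the gene was targeted, whether the knockout cells are 1 clone and whether replicates were separate cultures is not given in the sources used here. The p-values of other genes below thus measure only the spread between these samples, which may be technical.

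The neural crest is a transient population of vertebrate embryos that arises at the border between the neural plate and the surface ectoderm, leaves the neural tube and forms sensory and autonomic neurons, Schwann cells, pigment cells and the cartilage and bone of the face. Signals of the BMP, WNT and FGF families induce the border, where PAX3, PAX7, MSX1 and MSX2 are among the transcription factors that make cells competent for the crest fate. FOXD3, SOX9, SOX10 and ETS1 act after them as crest specifiers, which turn on the programme of survival, detachment from the epithelium and migration. Several of these genes also work elsewhere. FOXD3 is expressed in pluripotent cells, PAX3 and PAX7 act in muscle progenitors, SOX9 in cartilage and ETS1 in endothelium and lymphocytes.

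The sequence in front of the gene start is shown for PAX7 and PAX3, a pair of close paralogues that lay at very different levels in these cells, and for FOXD3, the only specifier gene with a promoter entry. RefSeq promoter entries of the GRCh38.p14 build matched 5 of the 8 genes, namely PAX7, PAX3, MSX1, MSX2 and FOXD3. The start meant here is that of the RefSeq entry, which differs from the gene positions given further below. The stretch shown ends at base 18630845 for PAX7 and 63322566 for FOXD3. Their gene positions below begin at 18631006 and 63323041. The 250 bases upstream of the start follow in the direction of transcription, chr1:18630596-18630845 on the plus strand for PAX7, chr2:222298999-222299248 on the minus strand for PAX3 and chr1:63322317-63322566 on the plus strand for FOXD3. Capitals mark each TAAT on either strand, the core letters that homeodomain proteins such as the PAX and MSX factors bind.
PAX7: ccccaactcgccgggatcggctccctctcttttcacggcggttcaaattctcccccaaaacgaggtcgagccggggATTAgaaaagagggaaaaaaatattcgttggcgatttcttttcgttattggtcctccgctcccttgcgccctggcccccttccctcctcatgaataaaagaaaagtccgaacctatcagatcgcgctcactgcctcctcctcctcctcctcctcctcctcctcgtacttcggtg
PAX3: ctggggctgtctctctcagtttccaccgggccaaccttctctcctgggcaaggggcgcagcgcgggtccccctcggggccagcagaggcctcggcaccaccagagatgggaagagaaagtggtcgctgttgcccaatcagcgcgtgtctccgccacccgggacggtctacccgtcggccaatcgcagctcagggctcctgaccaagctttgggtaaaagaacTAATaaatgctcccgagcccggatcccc
FOXD3: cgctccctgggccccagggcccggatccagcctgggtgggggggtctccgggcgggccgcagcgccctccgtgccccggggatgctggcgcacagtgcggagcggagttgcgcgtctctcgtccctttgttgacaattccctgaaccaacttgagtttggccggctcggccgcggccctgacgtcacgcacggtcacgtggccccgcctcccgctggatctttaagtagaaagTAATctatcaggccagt
The TAAT core was present in each of the 5 matched entries over their 300 bases, which run from 250 bases before to 50 bases after the start. It occurred 1 time in PAX7, PAX3, MSX1 and FOXD3 and 5 times in MSX2, where a TAAT and its reverse complement overlap in part. This core is common, and 50.2% of 35116 promoters of the same length held it. The FOXD3 entry also held the SOX core ACAAT 1 time and an E-box, CANNTG, 1 time. It held the hypoxia element ACGTG 2 times, once on each strand of the palindrome CACGTG, so that both matches lie on the same letters as its E-box. The SOX core was found in 27.4% of all promoters, the E-box in 68.7% and the hypoxia element in 21.4%, and a match is not a shown binding site. Searched on both strands, the SMAD box GTCTG was in none of the 5 entries and in 45.3% of all promoters, and the ETS core CCGGAAG in none of the 5 and in 10.3%. Guanine and cytosine made up 54.8% of the upstream bases of PAX7, 64.0% of those of PAX3 and 67.6% of those of FOXD3, beside a median of 58.0% over all entries.

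The libraries held between 16887789 and 20460031 counts assigned to genes, so that 1 count was worth 0.0485 to 0.0603 CPM (counts scaled to the library total after TMM normalization and given on the usual CPM scale). The 8 genes together took 2050 to 3145 counts of a library. Of 59050 genes, 17564 passed the filter on low counts and were tested with edgeR's quasi-likelihood test, among them 5 of the 8 members: PAX7, FOXD3, SOX9, SOX10 and ETS1. Log2 fold changes below are CPT2 KO minus WT with their standard error (SE), and a gene is called at a Benjamini-Hochberg adjusted p under 0.05. The transcript of the targeted gene went against the labels. CPT2 had 52 and 72 counts under the label WT and 233 and 170 under the label CPT2 KO, a log2 fold change of 1.78 with an SE of 0.27 and an adjusted p of 0.0218 in edgeR. Its groups did not overlap, but the call was lost with limma-voom (adjusted p = 0.0634) and in edgeR without CPT2 KO replicate 1 (0.168) or 2 (0.0511). The level of the targeted transcript thus gives no check of the labels in the direction of a loss, and every direction below is that of the libraries as labelled. WT replicate 1 stood apart, with 4.15% of counts from mitochondrial genes against 7.21% to 7.84% in the other 3 libraries. Its chi-square per degree of freedom against WT replicate 2 was 39.6, while that between the CPT2 KO replicates was 10.5. Against CPT2 KO replicates 1 and 2, WT replicate 1 gave 45.8 and 53.3 and WT replicate 2 gave 12.3 and 12.6. By this measure WT replicate 2 was nearer to the CPT2 KO libraries than to WT replicate 1. The correlation of log2 CPM over tested genes gave another order, with only small differences. WT replicate 2 correlated at 0.979 with WT replicate 1 and at 0.978 and 0.977 with CPT2 KO replicates 1 and 2. What part WT replicate 1 has in the results was not tested beyond the fits without it.

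The defining markers of the labelled cell type were present in all 4 libraries. All 10 pluripotency markers examined, POU5F1 and NANOG among them, were tested. By edgeR 0 of them were called, with 2 at an unadjusted p under 0.05 and 0 called by DESeq2 and limma-voom. Over all tested genes, 9.04% had an unadjusted p under 0.05 in edgeR, DESeq2 called 1.10% and limma-voom 0.171%. Their summed level ran from 10500 and 11200 CPM under the label WT to 11000 and 12500 CPM under the label CPT2 KO. Markers of a formed neural crest were mostly near the limit of detection. SNAI2, TWIST1, TFAP2A and TFAP2B stayed below 1 CPM in all 4 libraries, and the 5 crest markers outside the 8 genes summed to 49.4 and 29.8 CPM in the WT libraries and 28.6 and 32.7 CPM in the CPT2 KO libraries, nearly all of it from the nerve growth factor receptor NGFR. The name neural crest factors thus describes what these genes are known for and not the cells measured. In bulk RNA, fewer cells that express a gene and less RNA of it per cell cannot be told apart.

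Of the 5 members tested, PAX7 was called lower and ETS1 higher in the libraries labelled CPT2 KO, and FOXD3, SOX9 and SOX10 were not called. Over all tested genes edgeR called 0.0569% lower (10 of 17564) and 0.359% higher (63 of 17564). Because PAX7 and ETS1 were picked for these calls, nothing is read from the count. FOXD3 and SOX9 also lay lower in both CPT2 KO libraries than in both WT libraries, as did 19.8% of all tested genes, while 21.1% of all tested genes lay above. SOX10 overlapped between the groups, and PAX3, MSX1 and MSX2 were below the filter.

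**Figure D1:**
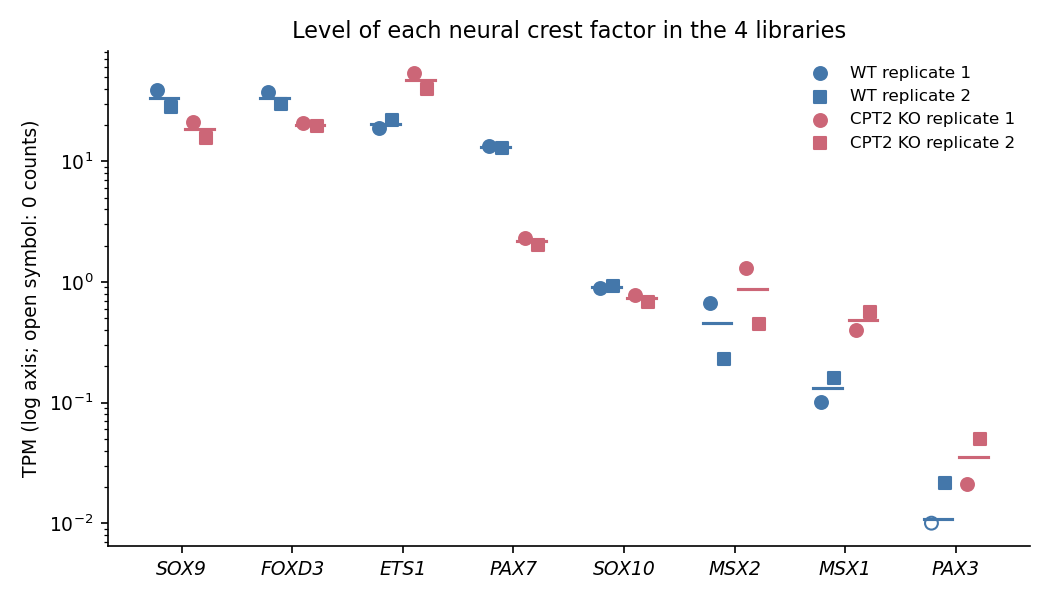
Level of the 8 genes as TPM (counts scaled by gene length and library, logarithmic axis) in each library, with 1 point per library coloured by its labelled genotype. ETS1 lies higher and PAX7, FOXD3 and SOX9 lower in both CPT2 KO libraries, SOX10 is near 1 TPM in all 4, and MSX1, MSX2 and PAX3 are at or near the limit of detection.

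Among the border factors, PAX7 encodes a paired box and homeodomain protein and spans chr1:18631006-18748866 on the plus strand of GRCh38. It had 404 and 485 counts in WT replicates 1 and 2 and 89 and 66 counts in CPT2 KO replicates 1 and 2, which is 21.9, 23.5, 4.41 and 3.98 CPM. Both WT libraries were high and both CPT2 KO libraries low, without overlap, and the replicates of a group were close to each other. The mean fell from 22.7 ± 1.16 CPM (SD, n = 2) to 4.19 ± 0.303 CPM (SD, n = 2), a log2 fold change of -2.43 (SE 0.22), or 5.40-fold lower. Even the lower WT library was 4.97 times the higher CPT2 KO library, whereas WT replicate 2 was 1.08 times replicate 1. By log2 fold change, PAX7 ranked 19 from the lowest of the 17564 genes. Alternative settings refit these same libraries, on which PAX7 was picked, so calls repeated under them are no independent support. PAX7 was called lower under each of 14 alternative settings, with log2 fold changes between -2.51 and -2.36.

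PAX3, the paralogue that overlaps PAX7 in its roles at the plate border and in muscle, spans chr2:222199888-222298996 on the minus strand. It had 0 and 1 counts in the WT libraries and 1 and 2 in the CPT2 KO libraries. All 4 values are below the 3 counts that a count of 0 allows, which is 0.146 to 0.181 CPM in these libraries, so no difference was detectable at this depth. Only 3 of the 6311 stretches of 31 bases in PAX7 transcripts also occur in PAX3, so reads of the pair can be told apart over nearly their whole length. CCDC140, which overlaps the span of PAX3 on the opposite strand without shared exonic bases, had 0 counts in all 4 libraries.

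MSX1 and MSX2, homeodomain repressors that respond to BMP, were also close to the limit. MSX1, at chr4:4859666-4863936 on the plus strand, had 1 and 2 counts in the WT libraries and 5 and 6 in the CPT2 KO libraries. The CPT2 KO values were the higher ones. The ratio of the summed counts per library total after TMM normalization was 3.89, with an exact 95% binomial interval of 1.03 to 21.7. MSX2, at chr5:174724533-174730893 on the plus strand, had 7 and 3 counts against 17 and 5. These overlapped between the groups, and replicates differed by as much as the groups did, since CPT2 KO replicate 1 was 2.79 times replicate 2 in CPM. The MSX2 ratio was 2.33 (interval 1.06 to 5.52), and such intervals cover counting error only, not the spread between cultures. MSX2 shares 9.34% of its stretches of 31 bases with other genes, mostly OR4D1 and the pseudogene MSX2P1, so its few reads are uncertain in origin.

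Among the specifiers, FOXD3, a forkhead repressor known both in early crest and in pluripotent cells, is at chr1:63323041-63325126 on the plus strand. It had 363 and 363 counts in the WT libraries and 255 and 205 in the CPT2 KO libraries, or 19.7 and 17.6 against 12.6 and 12.4 CPM. The groups did not overlap, and the lower WT library was 1.40 times the higher CPT2 KO library. The log2 fold change was -0.58 (SE 0.20), from means of 18.6 ± 1.45 and 12.5 ± 0.190 CPM (SD, n = 2 each), and it was called under 0 of 14 alternative settings, in which it ranged from -0.66 to -0.50. The antisense gene FOXD3-AS1 shares 179 exonic bases with FOXD3 on the opposite strand, and without a stated strand setting their reads cannot be told apart there. FOXD3-AS1 itself had 1040 and 1616 counts in the WT libraries and 1161 and 1242 in the CPT2 KO libraries (log2 fold change -0.03, edgeR adjusted p = 0.976). FOXD3 shares 8.80% of its stretches of 31 bases with other genes, FOXD3-AS1, FOXD2 and FOXD4L1 in front.

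SOX9, the specifier that also drives cartilage formation, is at chr17:72121020-72126420 on the plus strand. It had 716 and 649 counts in the WT libraries and 492 and 311 in the CPT2 KO libraries, which is 38.8, 31.5, 24.4 and 18.7 CPM. Both CPT2 KO libraries were lower than both WT libraries, by 1.29-fold between the nearest pair, a distance similar to the 1.30-fold gap between the CPT2 KO replicates. The log2 fold change was -0.70 (SE 0.19), from means of 35.2 ± 5.17 and 21.5 ± 3.97 CPM (SD, n = 2 each). It was not called, but was called lower under 2 of 14 alternatives, one of them without WT replicate 2 (-0.84), and over all 14 it ranged from -0.91 to -0.53.

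SOX10, which follows SOX9 in the crest and is kept in Schwann cells and melanocytes, spans chr22:37970686-37987422 on the minus strand. It had 17 and 22 counts in the WT libraries and 19 and 14 in the CPT2 KO libraries, or 0.921, 1.07, 0.940 and 0.844 CPM. The libraries of both groups lay among each other. The log2 fold change was -0.15 (SE 0.51). The ratio of summed counts per library total after TMM normalization was 0.898, with an exact 95% interval of 0.547 to 1.47. This interval covers counting error only and holds both a decrease and an increase, so no direction is read from it. Its exons share 89 bases on the opposite strand with POLR2F, a gene of an RNA polymerase subunit that had 470 and 687 counts against 648 and 757 (log2 fold change 0.40, edgeR adjusted p = 0.608).

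ETS1, the founding member of the ETS family and a regulator of crest delamination, spans chr11:128458761-128587558 on the minus strand. It had 634 and 916 counts in the WT libraries and 2267 and 1441 in the CPT2 KO libraries, which is 34.4, 44.5, 112 and 86.8 CPM. Both CPT2 KO libraries were higher than both WT libraries, and the lower of them was 1.95 times the higher WT library. The replicates differed by 1.29-fold within each group. The mean was 39.4 ± 7.14 CPM in WT and 99.5 ± 17.9 CPM in CPT2 KO (SD, n = 2 each), a log2 fold change of 1.34 (SE 0.18), or 2.52-fold. Without CPT2 KO replicate 1 the log2 fold change was 1.14 and ETS1 was no longer called. Without WT replicate 1 the log2 fold change was similar, 1.16, and ETS1 was called. It was called under 13 of 14 alternatives that kept the main threshold, and was not called at the stricter threshold of 0.01. Whether the call was lost because of that CPT2 KO library or because fewer libraries were left was not tested. As for PAX7, the alternatives refit the libraries on which ETS1 was picked, and are no independent support. ETS1-AS1, antisense within an intron of ETS1, had 0 and 0 counts in WT and 0 and 2 in CPT2 KO, and the microRNA gene MIR6090 in the same span had none.

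**Figure D2:**
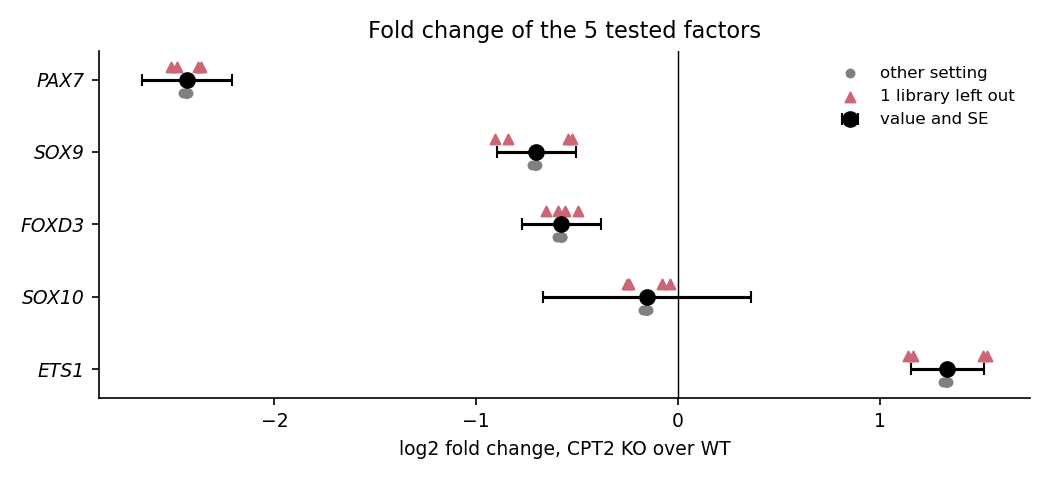
Log2 fold change (CPT2 KO minus WT) of the 5 tested genes, with its SE in the main fit and the values under the alternative settings as separate marks. PAX7 stays between -2.51 and -2.36 and ETS1 between 1.14 and 1.54, while SOX10 has the widest SE, 0.51.

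On the length-corrected scale, TPM, which alone allows levels of different genes to be compared, the order of the 8 genes differed between the groups. In the libraries labelled WT, SOX9 and FOXD3 had mean levels of 33.6 and 33.5 TPM, and their single libraries overlapped (39.0 and 28.2 for SOX9, 37.3 and 29.7 for FOXD3). ETS1 followed at 20.4 TPM and PAX7 at 13.1 TPM, each separated from its neighbours in both libraries. SOX10 at 0.903, MSX2 at 0.452, MSX1 at 0.131 and PAX3 at 0.0107 TPM made up the low end. In the libraries labelled CPT2 KO, ETS1 was at the top with a mean of 46.8 TPM, above FOXD3 at 20.1 and SOX9 at 18.4 TPM, which again overlapped (20.7 and 19.5 against 21.2 and 15.7). PAX7 kept the fourth place with 2.17 TPM. Below it MSX2 at 0.869 TPM overlapped with both SOX10 at 0.731 and MSX1 at 0.479 TPM, and PAX3 was last at 0.0356 TPM. Among PAX7, PAX3, MSX1 and MSX2, the border factors of the 8 genes, only PAX7 was thus well above the limit of detection in both groups.

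The other genes of the crest programme were read from 4 lists, which share no gene with each other and hold no member: plate border factors, crest specifiers, surface genes of migrating crest and genes of crest derivatives. Of the 40 genes in these lists that could be tested, edgeR called 0 and DESeq2 and limma-voom each called 0. An unadjusted p under 0.05 in edgeR was found for 4 of the 40, a share near the 9.04% of all tested genes. Of the 16 border factors 11 were tested, with a median log2 fold change of -0.155 beside 0.00175 over all tested genes, and 9 of the 11 were negative. The largest differences among border factors with a mean of at least 1 CPM were those of SP5, a WNT target, and ZIC4, a zinc finger factor. SP5 had 1.52 and 0.146 CPM in WT and 9.50 and 1.87 CPM in CPT2 KO, with wide gaps between replicates in both groups (edgeR adjusted p = 0.599). ZIC4 had 8.73 and 8.40 CPM in WT and 7.28 and 3.43 CPM in CPT2 KO (log2 fold change -0.65, SE 0.33, adjusted p = 0.598).

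Of the 16 further specifiers 8 were tested, with a median of 0.115, and TFAP2E (log2 fold change 0.39, SE 0.39) and MYCN (-0.32, SE 0.14) had the largest differences among those with a mean of at least 1 CPM. Below that level ALX1, a homeodomain factor of the facial crest, had 11 and 21 counts in WT and 12 and 0 in CPT2 KO (log2 fold change -1.32, SE 0.87), and WT replicate 1 and CPT2 KO replicate 1 were nearly equal in CPM. Of 13 surface genes all were tested, with a median of 0.134. The chemokine receptor gene CXCR4 had 1.52 and 1.41 CPM in WT and 2.92 and 1.93 CPM in CPT2 KO (log2 fold change 0.75, SE 0.42), and the cadherin gene CDH6 9.32 and 13.2 against 15.4 and 18.7 CPM (0.60, SE 0.23). Their edgeR adjusted p-values were 0.621 and 0.481. Of 17 derivative genes 8 were tested, with a median of -0.118 and 0 at an unadjusted p under 0.05 in edgeR. The receptor tyrosine kinase gene RET, which acts in enteric neuron precursors, had a log2 fold change of 0.33 (SE 0.18), and PHOX2A, an autonomic neuron factor, -0.33 (SE 0.47). The melanocyte enzyme gene TYR was at 0 counts in all 4 libraries.

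The list of border-inducing signals held BMP, WNT and FGF ligands together with antagonists. Of its 18 genes 12 were tested and edgeR called 1, beside 0.359% of all tested genes called higher. An unadjusted p under 0.05 in edgeR was found for 5 of the 12 (41.7%), beside 9.04% of all tested genes. They were the ligand genes FGF8 and FGF2 (log2 fold change 0.32, SE 0.14) and the antagonist genes FST, DKK1 and SFRP1. FST (0.81, SE 0.21) and DKK1 (2.65, SE 1.01, at low counts) were positive and SFRP1 (-0.54, SE 0.13) negative. FGF8, a growth factor of the plate border and the early gastrula, was at 0.217 and 0.340 CPM under the label WT and at 10.6 and 8.56 CPM under the label CPT2 KO. Both WT libraries were near the limit of detection and both CPT2 KO libraries were far above them (log2 fold change 5.06, SE 0.44, edgeR adjusted p = 0.000841). FGF17, of the same FGF subfamily, had 1.14 and 0.534 CPM in WT but 23.7 and 0.904 CPM in CPT2 KO, so the high value belonged to CPT2 KO replicate 1 alone (adjusted p = 0.695). The BMP antagonist gene NOG was higher in replicate 1 of each group, with 3.63 and 0.388 CPM in WT and 0.990 and 0.121 CPM in CPT2 KO (adjusted p = 0.724).

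**Figure D3:**
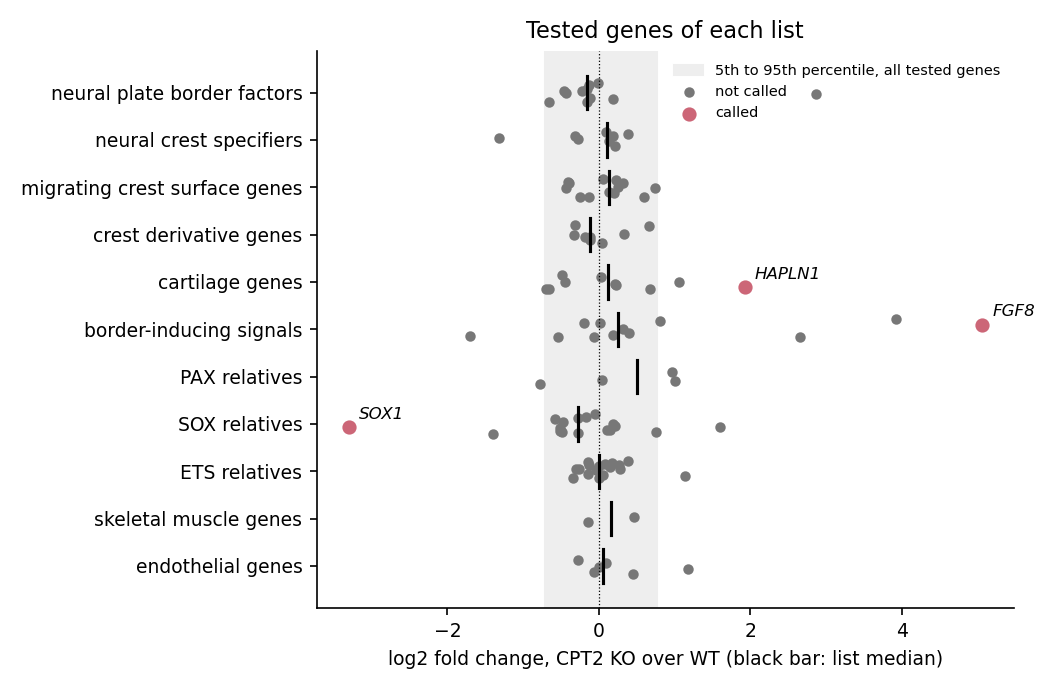
Log2 fold change (CPT2 KO minus WT) of every tested gene in each gene list, with 1 point per gene, called genes marked and the list median as a bar. Medians lie between -0.274 and 0.503, and FGF8, HAPLN1 and SOX1 are the called genes.

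Tissues in which single members also act were examined with lists of their genes. In cartilage, where SOX9 is the master regulator, 10 of 10 genes were tested, with a median of 0.122, and edgeR called 1 of them, beside 0.359% of all tested genes called higher. An unadjusted p under 0.05 in edgeR was found for 4 of the 10 (40%), beside 9.04% of all tested genes. HAPLN1, the link protein of the cartilage matrix, was called higher, with 6.45 and 8.20 CPM in WT and 34.3 and 21.4 CPM in CPT2 KO, a log2 fold change of 1.93 with an SE of 0.26 (adjusted p = 0.0112 in edgeR). It was opposite in direction to SOX9, and was not called by limma-voom or without CPT2 KO replicate 1. The aggrecan gene ACAN had a log2 fold change of 1.06 (SE 0.36) and the collagen gene COL11A1 -0.69 (SE 0.47), neither called. Of the 10 genes 6 were positive and 4 were negative as SOX9 was, among them COL9A1 (-0.65, SE 0.21, not called). Of 10 muscle genes only MET and DES could be tested, at 0.46 (SE 0.17) and -0.14 (SE 0.56), with 1 of the 2 at an unadjusted p under 0.05 and 0 called by edgeR, DESeq2 or limma-voom, and the master regulators MYOD1 and MYOG were at 0 counts in all libraries. Of 10 endothelial genes 6 were tested and edgeR called 0, with 1 at an unadjusted p under 0.05 and 0 called by DESeq2 and limma-voom. KDR, a receptor for VEGF, had 381 and 351 CPM in WT and 575 and 427 CPM in CPT2 KO (log2 fold change 0.45, SE 0.16, adjusted p = 0.424), FLT1 had a log2 fold change of 0.10 (SE 0.14), and the defining endothelial genes PECAM1 and CDH5 were below 1 CPM.

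Of the close relatives of the members, edgeR called 1 SOX gene, DESeq2 called 2 and limma-voom called 0. In edgeR, 6 of the 17 tested SOX relatives (35.3%) had an unadjusted p under 0.05, beside 9.04% of all tested genes. Among 18 SOX genes other than SOX9 and SOX10, 17 were tested, with a median of -0.274, and SOX1, a SOXB1 gene of the early neural plate, was called lower by edgeR, as were 0.0569% of all tested genes. It had 82 and 130 counts in WT and 15 and 5 in CPT2 KO, a log2 fold change of -3.30 with an SE of 0.48 (adjusted p = 0.0164 in edgeR), but was not called by limma-voom or without CPT2 KO replicate 2. Its SOXB1 relative SOX3 had 33.0 and 18.1 CPM in WT and 8.66 and 10.8 CPM in CPT2 KO (log2 fold change -1.39, SE 0.29). It was not called by edgeR (adjusted p = 0.107) and was called lower by DESeq2 (adjusted p = 0.00107) and by edgeR without WT replicate 2 (adjusted p = 1.53e-07). SOX15 had a log2 fold change of 0.75 (SE 0.27). Of 7 other PAX genes 4 were tested, with PAX6 at 1.01 (SE 0.65) and PAX9 at 0.96 (SE 0.44), and 3 of the 4 were positive, opposite to PAX7. By edgeR 0 of the 4 were called, with 0 at an unadjusted p under 0.05 and 0 called by DESeq2 and limma-voom. Of 26 other ETS genes 17 were tested, with a median of 0.00558 and edgeR calling 0, 0 at an unadjusted p under 0.05 and 0 called by DESeq2 and limma-voom. Among those with a mean of at least 1 CPM, ETV6 and ERG had the largest differences, 0.39 (SE 0.19) and -0.34 (SE 0.32), beside 1.34 for ETS1. Below that level SPIB, known from B cells, had 7 and 17 counts in WT and 28 and 22 in CPT2 KO, a log2 fold change of 1.14 (SE 0.55) that was not called (edgeR adjusted p = 0.583). Of the 4 other FOXD genes none had enough counts to be tested.

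Genes near the members on the chromosome were compared next, as 3 tested genes on each side by position in GENCODE release 29 together with genes overlapping a member. These were 51 genes, of which 48 were tested. By edgeR 0 of them were called, DESeq2 called 1 and limma-voom 0. An unadjusted p under 0.05 in edgeR was found for 4 of the 48, beside 9.04% of all tested genes. Around PAX7 the 6 tested neighbours, within 1091171 bases of its leftmost base, had log2 fold changes between -0.60 and 0.49, beside -2.43 for PAX7. Around ETS1 the 6 tested neighbours had values between -0.41 and 0.50, beside 1.34 for ETS1. For FOXD3 they lay between -0.03 and 0.67 and for SOX9 between -0.80 and 1.26. Around PAX3 they lay between -0.34 and 0.22, around MSX1 between -0.43 and 2.94, around MSX2 between -0.18 and 2.34 and around SOX10 between -1.42 and 0.55. The highest value around SOX9 was that of SSTR2, with 63 and 135 counts in WT and 236 and 206 in CPT2 KO. SSTR2 (log2 fold change 1.26, SE 0.30) was called by DESeq2 (adjusted p = 0.0356) and not by edgeR (adjusted p = 0.165). The largest differences around MSX1, MSX2 and SOX10 belonged to genes of low counts. All of these genes were singled out after their values were seen. CYTL1 near MSX1 had 1 and 7 counts in WT and 26 and 33 in CPT2 KO, and its log2 fold change of 2.94 (SE 0.73) was not called by edgeR (adjusted p = 0.180). DRD1 near MSX2 had 0 and 4 against 11 and 9, and SLC16A8 near SOX10 had 11 and 21 against 1 and 10. SOX9-AS1 is named for its position, since it overlaps SOX9 on the opposite strand, without shared exonic bases. Its counts were 28 and 31 in WT against 20 and 21 in CPT2 KO. Both CPT2 KO libraries lay below both WT libraries in CPM, by -0.43 on the log2 scale (SE 0.46), and edgeR did not call it.

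**Figure D4:**
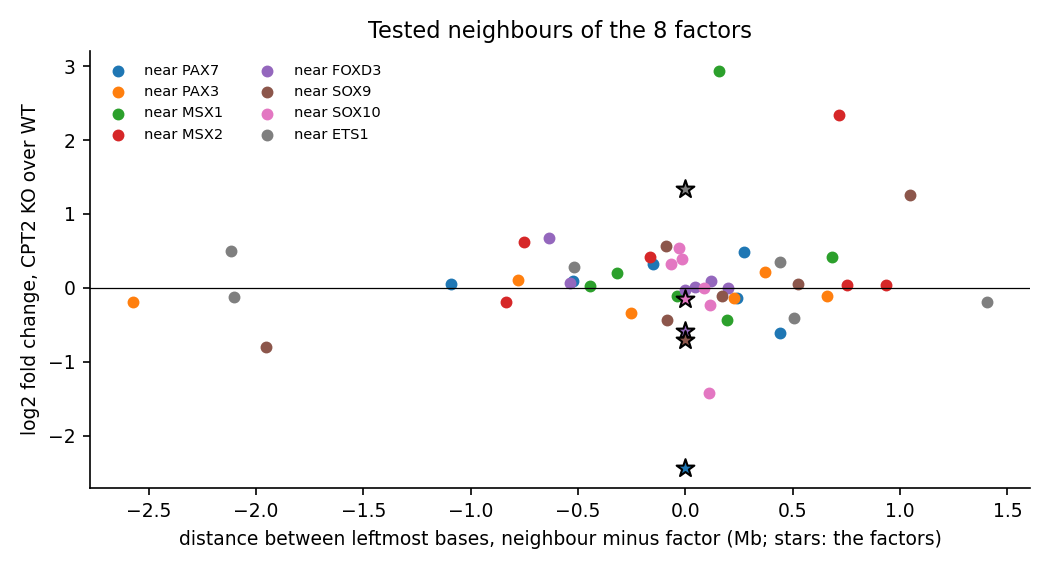
Log2 fold change (CPT2 KO minus WT) of the tested genes around each member against the distance between leftmost bases in megabases, neighbour minus member, with the tested members drawn as stars. The star of PAX7 lies at -2.43 below its 6 neighbours and that of ETS1 at 1.34 above its 6.

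The genes with a pattern over the 4 libraries most like that of PAX7 and ETS1 were found by the root mean square distance of centred log2 CPM, among tested genes with a mean of at least 1 CPM. For PAX7 these were GPR85 (distance 0.131), HOXD9 (0.141), SMIM24 (0.249), HOXD10 (0.287) and EVX1 (0.338). HOXD9 and HOXD10, neighbouring homeobox genes of the HOXD cluster, had 42, 40, 8 and 5 counts and 101, 144, 34 and 26 counts in the same library order as above. Of the 5, HOXD10 was called lower (log2 fold change -1.94, SE 0.34, edgeR adjusted p = 0.0467), and since it shares exonic bases with HOXD11 in the annotation its counts are uncertain. For ETS1 the nearest were MIR302A (0.0274), VAT1L (0.0340), NLRP2 (0.0478), SPOCK3 (0.0749) and MCHR1 (0.0876). VAT1L, with 256 and 379 counts in WT and 895 and 605 in CPT2 KO, was called higher (log2 fold change 1.32, SE 0.20, adjusted p = 0.0189), and the others of the 5 were not called. With 4 libraries in 2 groups such likeness rests mostly on the difference between the groups, and it is given as a description.

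**Figure D5:**
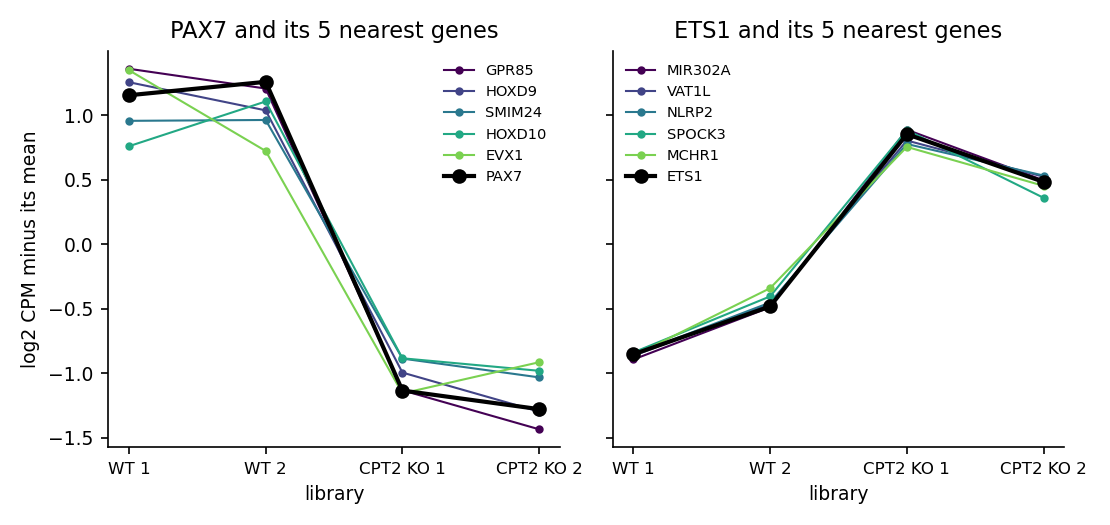
Centred log2 CPM of PAX7 and ETS1 and of the 5 genes most like each in the 4 libraries, where lines only join the points of 1 gene. The PAX7 panel is high in both WT libraries and low in both CPT2 KO libraries, and the ETS1 panel runs the other way, with CPT2 KO replicate 1 the highest.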

How the data were processed

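For the 4 libraries the authors deposited unnormalized counts of reads per gene, as whole numbers, made with HISAT2 2.1.0 and featureCounts 1.6.4 on hg38 (GRCh38), per the submitters' processing notes. Strand setting, multiply mapping reads and annotation release were steps not given in the sources used here. Gene lengths in the table equal the exon lengths of GENCODE release 29 for 43704 of 59050 genes, and member positions were taken from that release. Groups were taken from the genotype labels.

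The counts were tested with edgeR 4.0.16 in R 4.3.3 (TMM, filterByExpr by group, robust quasi-likelihood fit, 2 against 2 libraries), with Benjamini-Hochberg adjustment over the 17564 tested genes and a threshold of 0.05. The tests were run on simulated counts with known changes before use. SE is the absolute log2 fold change divided by the square root of F. TPM was computed from the counts and the table's gene lengths. The alternatives were DESeq2 1.42.0, limma-voom (limma 3.58.1), other scalings and filters, the mitochondrial genes left out, a threshold of 0.01, a replicate term and each library left out. The legacy quasi-likelihood estimate was added as a further alternative after seeing the data.

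The members and the 13 gene lists were chosen with earlier results of these data known. Of each list the called genes are named and, where fewer than 2 were called, the 2 with the largest absolute log2 fold change and a mean of at least 1 CPM. A few further genes, such as COL9A1, FST, DKK1 and SFRP1, were named after their values were seen. Of the neighbours, those called and those overlapping exons or introns of a member are named. Replicates carry the numbers 1 and 2 in their titles, and nothing in the labels ties equal numbers together.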

Additional observations from a re-analysis of the deposited data

How the results depend on the processing

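Of the 5 members with a fitted fold change (PAX7, FOXD3, SOX9, SOX10 and ETS1), none reversed its direction under the alternatives run. PAX3, MSX1 and MSX2 have no fitted value. All alternatives refit the same libraries on which PAX7 and ETS1 were picked, so their repeated calls are a description. PAX7 was called under all 14, FOXD3 under 0 of 14 and SOX10 under 0 of 13, since the stricter filter removed SOX10. Of all genes called higher and lower, the numbers became 101 and 23 with no low count filter, 147 and 47 with DESeq2, 28 and 2 with limma-voom and 27 and 2 at a threshold of 0.01. With the replicate block they became 233 and 140. Leaving out 1 library in turn gave 31 to 531 higher and 2 to 674 lower, with 531 and 674 without WT replicate 2, 113 and 36 without WT replicate 1, 31 and 2 without CPT2 KO replicate 1 and 81 and 2 without CPT2 KO replicate 2. In these fits the lone library of a group is assumed to vary like the other group.

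Among the members, 2 were called lower with the replicate block (PAX7 and SOX9, the latter at -0.71) and 1 to 2 on leaving out a library. ETS1 was the 1 called higher, and 0 were at a threshold of 0.01, while leaving out a library gave 0 to 1 and a log2 fold change of ETS1 between 1.14 and 1.54. The SOX relatives called numbered 2 with DESeq2, 0 with limma-voom, 2 with the replicate block, 0 at a threshold of 0.01 and 0 to 3 on leaving out a library. The cartilage genes called numbered 0 with limma-voom, 0 at a threshold of 0.01 and 0 to 2 on leaving out a library. Of the genomic neighbours, 1 was called with DESeq2 (SSTR2), 2 with the replicate block (CYTL1 and SSTR2) and 0 to 3 on leaving out a library. With the replicate block 1 border factor (SP5) and 3 border-inducing signals were called, and leaving out a library gave 1 to 4 such signals and 0 to 3 surface genes. The deviations of equally numbered libraries correlated at 0.173 over 17564 genes, in 2 pairs that share only a number. The cause of these changes was not tested. With 0 to 17 counts a library, PAX3, MSX1 and MSX2 were described by ratios whose intervals cover counting error only, and the spread between cultures was not measured for them.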

Other observations

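Some genes of the crest and signal lists differed widely between the replicates of a group, and these were singled out after their values were seen. PRDM1, a plate border factor, had 5 and 1 counts in the WT libraries and 29 and 1 in the CPT2 KO libraries, so its level was near 0 in replicate 2 of both groups. FGF17 had 21 and 11 counts in WT and 478 and 15 in CPT2 KO, and SP5 had 28 and 3 against 192 and 31, with both CPT2 KO libraries above both WT libraries in CPM. NOG had 67 and 8 against 20 and 2, and was lower in CPT2 KO than in WT within each replicate number. In all 4 genes replicate 1 was the higher library of its group. ETS1, PAX7 and FOXD3 did not show such gaps, with replicates within 1.29-fold of each other.

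The eye field factor gene SIX6 was called lower, as was SOX1, among the neuroectoderm markers. It had 24 and 67 counts in the WT libraries and 2 and 1 in the CPT2 KO libraries (log2 fold change -4.72, SE 0.86, edgeR adjusted p = 0.0382). OTX2, of the same marker list, had 190 and 70 counts in WT and 430 and 177 in CPT2 KO (log2 fold change 1.25, SE 0.62, adjusted p = 0.626).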
